A study of Mus musculus with 6 samples.

Results

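The enzymes that turn arachidonic acid into prostaglandins, thromboxane and leukotrienes were followed in cGAS-/- neutrophils incubated with or without lipopolysaccharide (LPS). The members are the 10 genes *Pla2g4a*, *Ptgs1*, *Ptgs2*, *Ptges*, *Tbxas1*, *Alox5*, *Alox5ap*, *Lta4h*, *Ltc4s* and *Alox15*, taken by symbol from a table of 38739 genes. All 10 were above 0 in at least 1 sample, as were 23049 genes of the table, which are the genes tested. *Ptgs2*, the inducible cyclooxygenase, was the member that changed by the limits of the study, from a mean of 8.19 to 164.8, whereas *Alox5*, the lipoxygenase that starts leukotriene synthesis, had a lower mean with LPS that did not pass them.

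Cytosolic phospholipase A2 releases arachidonic acid from membranes when cells are activated. The cyclooxygenases turn it into prostaglandin H2, from which terminal synthases make prostaglandin E2, prostacyclin or thromboxane. Alternatively, arachidonate lipoxygenase, helped by its activating protein FLAP, makes leukotriene A4, which is converted into leukotriene B4, a strong attractant of neutrophils, or into the cysteinyl leukotrienes that mast cells and eosinophils are known for.

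Cells from the peritoneum of cGAS knockout mice (strain given as C57B/L6; young adult males elicited with thioglycolate in the study's methods) were kept for 2 h in medium (3 untreated samples) or with LPS of *E. coli* 026:B6 (3 LPS samples). cGAS is a sensor of cytosolic DNA. The labels give 500 ng/mL of LPS, and the methods of the study give a lower dose for the RNA sequencing. Both groups carry the cGAS deletion and no wild-type samples were analysed here, so the comparison is of LPS against medium in cells without cGAS. The labels do not say whether the 3 samples of a group came from separate mice, so p values measure the spread between these samples, which may be technical. In such bulk samples, fewer cells of a type and less RNA per cell cannot be told apart.

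The values are averages of TPM, an abundance per transcript length and library, over all annotated transcripts of each gene, with a common factor taken out of each sample, and are called scaled TPM here. They summed to between 603599 and 713384 in untreated samples and between 404675 and 465904 in LPS samples, with 21.0 to 28.3% and 49.7 to 58.9% of the sum in protein-coding genes. The number of reads behind a value is unknown. Neutrophil markers summed to 9790 to 28460 in untreated and 16490 to 54970 in LPS samples, led by *S100a9*, while *Elane* was listed at 0 throughout. The macrophage or monocyte markers, led by *Lyz2*, summed to 1143 to 1549 and 858.2 to 1140. Most of this sum was *Lyz2*, with means of 1054 and 623.1 and a log2 fold change of -0.74. The median log2 fold change of the macrophage or monocyte markers was 0.29, so the lower sum with LPS does not describe the list as a whole. B cell markers, led by *Ighm*, summed to 262.8 to 1095 over the 6 samples, T or NK cell markers, led by *Cd3g*, to 8.11 to 21.1, and those of mesothelium or fibroblasts, led by *Dcn*, to 0.641 to 3.02. Red cell markers, led by *Hbb-bs*, were far higher in sample 3 of each group (2696 and 3074) than in the other samples (19.1 to 377.2). The transcript of the deleted gene, *Cgas*, was between 0.0286 and 0.307 in all 6 samples.

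By the limits of the study, a log2 fold change over 2 with p under 0.01 before adjustment, LPS raised 1 of the 10 members, against 1.69% of all genes tested, and lowered 0, against 1.31% (389 genes higher and 301 lower). With the samples rescaled to the same sum over protein-coding genes that split was 216 higher and 519 lower, with centring on the median 274 and 435, with the same sum over all genes 789 and 144, and with voom 1552 and 177. Voom is made for counts, which these values are not, so its results here and below are a rough check only. At a Benjamini-Hochberg adjusted p under 0.05 in limma, 1 member was higher, against 0.894% of all genes, and 0 were lower, against 0.946%. With the fold limit set at 1 in place of 2, *Ptges* joined *Ptgs2*, which made 2 members higher, against 3.62% of all genes, and 0 lower, against 2.92%. Every LPS sample was above every untreated sample for 4 of the 10 members (*Ptgs2*, *Ptges*, *Tbxas1* and *Lta4h*), against 13.1% of all genes, and below for 0, against 9.75%. The log2 fold change on log2(scaled TPM + 1) was above 0 for 7 members and below 0 for 3, with exceptions under other scalings for *Alox15*, which was at -0.04 with the sum over protein-coding genes, and for *Ptgs1* and *Ltc4s*, which were at 0.15 and 0.20 with voom. The median over the members was 0.88, beside 0.01 over all genes tested and 0.17 over genes with a mean of at least 5. Over protein-coding genes alone, the type of all members, these 2 background medians were 0.05 and 0.50. Of protein-coding genes, 293 were called higher and 44 lower. The shares of all genes given here and below include noncoding genes and pseudogenes. They were not worked out for protein-coding genes alone, so they are not a like-for-like background for the members or the pathway genes. The median of 0.17 moved to -0.26 with the sum over protein-coding genes, to 0.73 with the sum over all genes and to 0.85 with voom, so that the fold changes below are relative to the scaling of the deposited table.

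**Figure D1:**
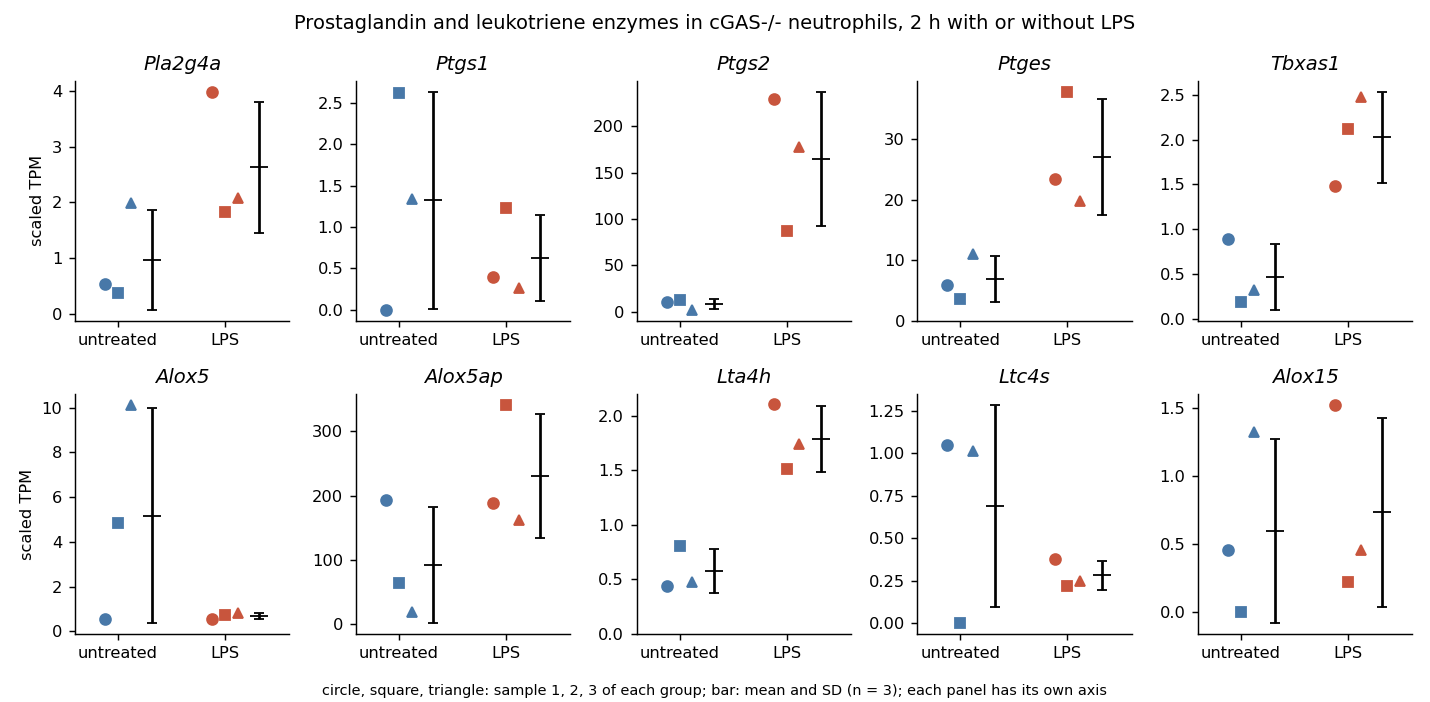
Scaled TPM of the 10 enzymes (y axis, a separate linear scale in each panel) in the 3 untreated and 3 LPS samples, each point 1 sample, with the mean and SD beside them. The LPS samples of *Ptgs2* sit between 86.6 and 229.5, above the highest untreated sample at 12.1, and the untreated samples of *Alox5* spread from 0.540 to 10.1 while its LPS samples lie between 0.536 and 0.813.

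Among the enzymes of arachidonic acid release, *Pla2g4a* (GRCm39 chromosome 1, 149705369 to 149837053, minus strand), which encodes cytosolic phospholipase A2, was at 0.536, 0.372 and 1.99 in untreated samples 1, 2 and 3 and at 3.98, 1.83 and 2.07 in LPS samples 1, 2 and 3. Untreated sample 3 lay within the LPS range, so the groups overlapped. The means were 0.967 ± 0.893 and 2.63 ± 1.18 (SD, n = 3 each), and the log2 fold change of 0.93 (SE 0.44, 95% interval -0.16 to 2.01) did not pass the test (limma, adjusted p = 0.352).

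*Ptgs2* (chromosome 1, 149975194 to 149983978, plus strand), the cyclooxygenase that activated cells switch on, was at 10.6, 12.1 and 1.92 in the untreated and at 229.5, 86.6 and 178.2 in the LPS samples. All LPS samples were above all untreated samples, and the lowest LPS value was 7.16 times the highest untreated value. The means were 8.19 ± 5.49 and 164.8 ± 72.4 (SD, n = 3 each), a ratio of 20.1, and the log2 fold change was 4.33 (SE 0.70, 95% interval 2.62 to 6.04; limma, adjusted p = 0.0462). Among all genes of a sample, *Ptgs2* stood at the 72.7th to 90.0th percentile in untreated and at the 97.7th to 99.0th in LPS samples. Its call held in all 20 alternatives of the fit, but its adjusted p ranged from 0.00454, with voom, to 0.184. That p was 0.121 with the sample numbers as a block, and above 0.05 in each of the 6 fits with 1 sample left out (0.0668 to 0.184). With centring on the median the limma adjusted p was 0.0559, and with the sum over protein-coding genes 0.063. The antisense gene *Ptgs2os*, which shares 249 bases with *Ptgs2*, was at 0.669 or below in each sample.

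*Ptgs1* (chromosome 2, 36120438 to 36142287, plus strand), the cyclooxygenase that many resting cells and platelets carry, was listed at 0, 2.62 and 1.34 in the untreated and at 0.394, 1.22 and 0.264 in the LPS samples. The untreated samples spread on both sides of the LPS samples. The log2 fold change of -0.37 (SE 0.55, 95% interval -1.72 to 0.98; limma, adjusted p = 0.726) did not pass the test, and was 0.04 without untreated sample 2 and -0.88 without untreated sample 1. The log2 ratio of *Ptgs2* to *Ptgs1* within a sample, each value plus 1, was 3.53, 1.86 and 0.32 in untreated and 7.37, 5.30 and 7.15 in LPS samples, a difference of 4.70. These groups did not overlap, and the exact two-sided permutation test gave p = 0.1, the smallest that 3 against 3 samples allow (adjusted p = 0.2 over the 6 ratios compared). With a pseudocount of 0.1 the difference was 4.81 and the exact permutation p was 0.2, as the groups then overlapped.

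The 250 bases before the transcript start are shown for both cyclooxygenases, since their levels parted, for *Ptges*, the synthase downstream, and for *Ptgir*, the prostanoid receptor that rose with LPS. The sequences are those of RefSeq on GRCm38.p6, a build other than that of the gene positions, at chr1:150099781-150100030 (plus strand, *Ptgs2*), chr2:36230176-36230425 (plus strand, *Ptgs1*), chr2:30903298-30903547 (minus strand, *Ptges*) and chr7:16906240-16906489 (plus strand, *Ptgir*). Capitals mark matches on either strand to TTNNGNAA, letters that C/EBP factors can bind.
Ptgs2: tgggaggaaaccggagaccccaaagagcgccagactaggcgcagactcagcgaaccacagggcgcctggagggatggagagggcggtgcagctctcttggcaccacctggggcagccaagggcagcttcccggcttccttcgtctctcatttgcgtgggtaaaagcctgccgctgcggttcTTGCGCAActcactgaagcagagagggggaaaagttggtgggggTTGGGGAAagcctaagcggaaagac
Ptgs1: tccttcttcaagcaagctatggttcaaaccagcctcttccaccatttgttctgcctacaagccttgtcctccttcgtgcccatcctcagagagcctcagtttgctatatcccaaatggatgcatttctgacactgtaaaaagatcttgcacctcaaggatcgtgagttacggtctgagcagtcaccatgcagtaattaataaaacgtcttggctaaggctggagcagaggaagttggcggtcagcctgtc
Ptges: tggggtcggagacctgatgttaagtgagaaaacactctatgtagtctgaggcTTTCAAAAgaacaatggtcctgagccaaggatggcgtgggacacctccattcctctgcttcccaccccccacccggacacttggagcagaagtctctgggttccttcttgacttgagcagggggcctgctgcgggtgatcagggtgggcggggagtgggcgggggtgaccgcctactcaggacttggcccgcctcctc
Ptgir: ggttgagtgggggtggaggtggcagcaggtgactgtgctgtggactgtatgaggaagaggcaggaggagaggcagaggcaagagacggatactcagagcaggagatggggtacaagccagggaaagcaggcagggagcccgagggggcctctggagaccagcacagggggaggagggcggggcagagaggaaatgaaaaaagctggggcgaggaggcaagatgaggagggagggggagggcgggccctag
*Ptgs2* held 2 such matches, TTGCGCAA at -69 to -62 and TTGGGGAA at -25 to -18 counted from the start, and an E-box, CACGTG, at 17 to 22 after it. *Ptges* held 1, TTTCAAAA at -198 to -191, whereas *Ptgs1* and *Ptgir* held none of the 6 motifs searched on both strands. In windows from 250 bases before to 50 after the start, TTNNGNAA was found in 40.7% of 32841 promoters and CACGTG in 7.2%. The NF-kB motif, 10 letters with 3 accepted forms, was in 23.0% of all promoters and in those of *Alox5* (GGGACTGGCC at -53 to -44) and *Lta4h* (GGTTCCTCCC at -128 to -119 and GGTGCCTCCC at -16 to -7). The AP-1 letters TGANTCA (7.8% of promoters) were in that of *Tbxas1*, and the cAMP response element TGACGTCA (1.8%) in none of these promoters. *Pla2g4a* had 2 separate windows, for 2 transcript starts. TATAAA (13.6%) was in that of *Tbxas1* and in window 2 of *Pla2g4a*, at -200 to -195. TTNNGNAA was in window 1 of *Pla2g4a*. A promoter was matched for 8 of the 10 members. A match is a description of the letters and not a site shown to be bound. The lack of a match covers only these letters within this window, and other forms or more distant stretches were not searched.

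Of the terminal synthases, *Ptges* (chromosome 2, 30779483 to 30820196, minus strand), the inducible microsomal synthase of prostaglandin E2, was at 5.95, 3.64 and 11.05 in the untreated and at 23.4, 37.9 and 19.8 in the LPS samples. All LPS samples were above all untreated samples. The means were 6.88 ± 3.79 and 27.0 ± 9.58 (SD, n = 3 each), a ratio of 3.93, and the log2 fold change was 1.89 (SE 0.46, 95% interval 0.76 to 3.02; limma, adjusted p = 0.107). Before adjustment its p was within the limit of 0.01, and its fold change was under that of 2. It passed both limits without untreated sample 3 (2.25, adjusted p = 0.0913), with a pseudocount of 0.1 (2.05), with the same sum over all genes (2.45, adjusted p = 0.0473), with voom (2.61, adjusted p = 0.00625) and with the factor per sample removed (2.05). Its limma p was no longer under 0.01 with centring on the median (1.61), with the sum over protein-coding genes (1.42) or with the sample numbers as a block. The same held in each fit that left out any other single sample. A processed pseudogene on the same strand, *Gm13400*, lies within the bounds of *Ptges* and was at 1.11, 5.48 and 1.21 in untreated and 23.1, 22.4 and 8.36 in LPS samples. No stretch of at least 150 bases at 95% identity was found between the transcripts of *Gm13400* and *Ptges*. The part of *Gm13400* in the value of *Ptges* was not tested otherwise. The antisense gene *Gm74745* shares 243 bases with *Ptges* at 100% identity and has no values here. The log2 ratio of *Ptges* to *Ptgs2* was -0.73, -1.50 and 2.04 in untreated and -3.24, -1.17 and -3.11 in LPS samples, and its difference of -2.44 did not pass the exact permutation test (p = 0.2, adjusted p = 0.3), with overlapping groups. Without untreated sample 3 the difference was -1.39.

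*Tbxas1* (chromosome 6, 38852203 to 39061523, plus strand), thromboxane synthase, was at 0.887, 0.193 and 0.327 in the untreated and at 1.48, 2.12 and 2.47 in the LPS samples. The LPS samples were all above the untreated samples, at a low level. The means were 0.469 ± 0.368 and 2.02 ± 0.506 (SD, n = 3 each), a ratio of 4.32, but the log2 fold change of 1.06 (SE 0.34, 95% interval 0.23 to 1.88) gave an adjusted p of 0.187 in limma and passed the limits with voom alone (2.07). Platelets are rich in thromboxane synthase, and the 9 platelet or megakaryocyte markers, led by *Pf4*, summed to 4.05 to 11.2 in untreated and 14.4 to 44.7 in LPS samples, without overlap, with *Tubb1* called higher, none listed at 0 in all samples and 4 under 1 throughout. The median log2 fold change of these markers was 0.10. *Pf4* itself overlapped between the groups, at 0.769 to 7.74 in untreated and 4.17 to 30.4 in LPS samples. The part of platelets in the values of *Tbxas1* and *Ptgs1* was not tested. The log2 ratio of *Tbxas1* to *Ptgs1* differed by 1.43 between the groups, which overlapped (exact permutation p = 0.3, adjusted p = 0.3), and by 0.88 without untreated sample 2.

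*Alox5* (chromosome 6, 116387032 to 116438139, minus strand), the lipoxygenase that makes leukotriene A4, was at 0.540, 4.86 and 10.1 in the untreated and at 0.536, 0.748 and 0.813 in the LPS samples. The untreated samples differed among themselves by 18.7 times, with sample 1 at the level of the LPS samples, which lay close together. The means were 5.17 ± 4.80 and 0.699 ± 0.145 (SD, n = 3 each), and the log2 fold change of -1.46 (SE 0.74, 95% interval -3.25 to 0.34; limma, adjusted p = 0.376) did not pass the test. Without untreated sample 1 it was -2.25 (limma, adjusted p = 0.0774) and passed the limits of the study, the 1 alternative in which a member was called lower. Without untreated sample 3 it was -0.83 (limma, adjusted p = 0.532).

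*Alox5ap* (chromosome 5, 149196003 to 149227762, plus strand), which encodes FLAP, had the highest mean of the members in each group, at 192.4, 64.0 and 18.2 in the untreated and 188.6, 341.1 and 161.5 in the LPS samples. Untreated sample 1 lay within the LPS range and the other untreated samples below it. The means were 91.5 ± 90.3 and 230.4 ± 96.8 (SD, n = 3 each), and the log2 fold change of 1.82 (SE 0.86, 95% interval -0.28 to 3.91; limma, adjusted p = 0.346) did not pass the test. It was 2.63 without untreated sample 1 and 0.97 without untreated sample 3, and passed the limits with voom alone (2.45). Over the untreated samples *Alox5* and *Alox5ap* had opposite orders, since *Alox5* was highest and *Alox5ap* lowest in sample 3. Their log2 ratio was -6.97, -3.47 and -0.79 in untreated samples, and -6.95, -7.61 and -6.49 in LPS samples. The difference in that ratio of -3.27 came with overlapping groups (exact permutation p = 0.3, adjusted p = 0.3), and was -1.79 without untreated sample 3 and -4.89 without untreated sample 1.

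*Lta4h* (chromosome 10, 93289210 to 93320749, plus strand), the hydrolase that makes leukotriene B4, was at 0.441, 0.810 and 0.478 in the untreated and 2.11, 1.52 and 1.74 in the LPS samples. The LPS samples were all higher, and the spread within each group was small beside the distance between them. The means were 0.577 ± 0.203 and 1.79 ± 0.302 (SD, n = 3 each), a ratio of 3.11, but the log2 fold change of 0.83 (SE 0.30, 95% interval 0.10 to 1.55; limma, adjusted p = 0.23) did not pass the limits. The log2 ratio of *Lta4h* to *Alox5* was -0.10, -1.70 and -2.91 in untreated and 1.02, 0.53 and 0.60 in LPS samples. This difference of 2.28 came without overlap (exact permutation p = 0.1, the smallest possible, adjusted p = 0.2), and was 1.00 with a pseudocount of 5 and 3.53 with a pseudocount of 0.1.

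*Ltc4s* (chromosome 11, 50127288 to 50129443, minus strand), which makes leukotriene C4, was listed at 1.05, 0 and 1.01 in the untreated and at 0.379, 0.219 and 0.245 in the LPS samples. Untreated samples 1 and 3 were above, and sample 2 below, the LPS samples (log2 fold change -0.33, SE 0.33, 95% interval -1.13 to 0.48; limma, adjusted p = 0.6). The log2 fold change was -0.67 without untreated sample 2, -0.15 without untreated sample 1 and -0.16 without untreated sample 3. Its antisense neighbour *Gm26542*, which shares 191 bases with it at 99.476% identity, was at 1.47 to 2.13 in untreated and 0.411 to 0.678 in LPS samples, and whether the quantification used strand is not given in the sources used here. Mast cells and eosinophils are known sources of this enzyme. The 5 of 8 mast cell markers in the table, led by *Hdc*, summed to 28.5 to 86.1 in untreated and 83.3 to 133.9 in LPS samples, with overlap. Most of this sum was *Hdc*, with means of 37.2 and 74.1. The 6 eosinophil markers, led by *Il5ra*, summed to 3.10 to 8.52 and 2.02 to 5.31, with *Prg3* and *Epx* listed at 0 in all samples. The part of these cells in the value of *Ltc4s* was not tested.

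*Alox15* (chromosome 11, 70234970 to 70242858, minus strand), a lipoxygenase that resident peritoneal macrophages and eosinophils carry, was listed at 0.460, 0 and 1.33 in the untreated and at 1.52, 0.220 and 0.461 in the LPS samples. The groups overlapped over nearly their whole range. The log2 fold change was 0.13 (SE 0.44, 95% interval -0.95 to 1.22; limma, adjusted p = 0.882). It was -0.16 without untreated sample 2, -0.17 without LPS sample 1, 0.45 without untreated sample 3, 0.35 without LPS sample 2 and 0.22 without LPS sample 3.

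**Figure D2:**
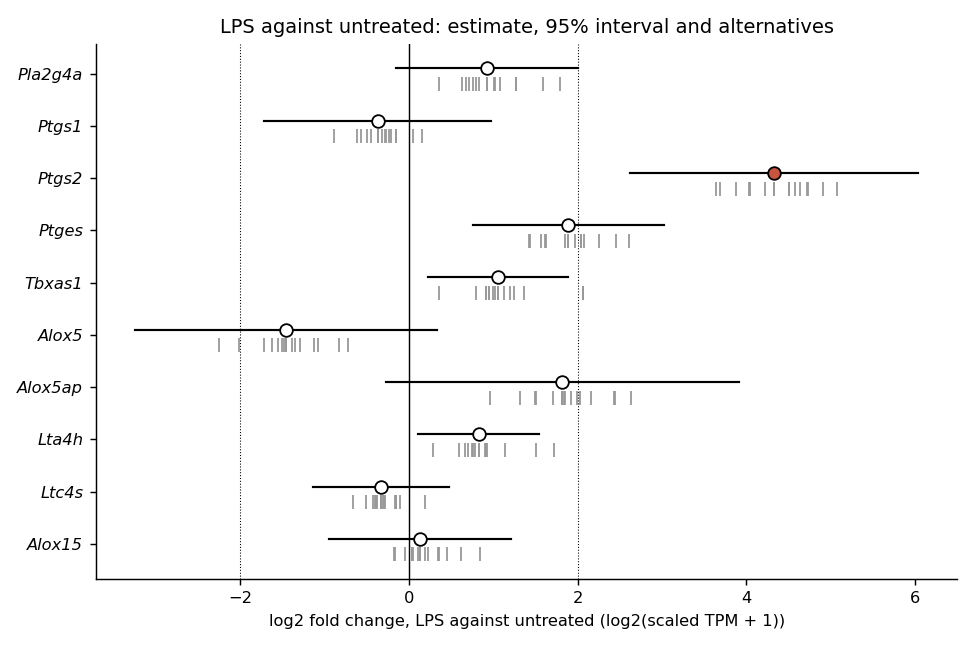
Log2 fold change of each enzyme (x axis, LPS against untreated on log2(scaled TPM + 1)), with circles for the estimate over 3 against 3 samples, lines for the 95% interval, grey ticks for the values under the alternatives and dotted lines at the fold limit of 2 in either direction. *Ptgs2*, the filled circle, is at 4.33 with all ticks beyond 2, while the intervals of *Pla2g4a*, *Ptgs1*, *Alox5*, *Alox5ap*, *Ltc4s* and *Alox15* include 0.

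The order of the members by mean level was led by *Alox5ap* in both groups. In untreated samples its lowest value (18.2) was above the highest of *Ptgs2* (12.1), and each of the other neighbours in the order, *Ptgs2*, *Ptges*, *Alox5*, *Ptgs1*, *Pla2g4a*, *Ltc4s*, *Alox15*, *Lta4h* and *Tbxas1*, overlapped with the next. In LPS samples *Alox5ap* and *Ptgs2* overlapped, *Ptges* was below both and above *Pla2g4a* without overlap, and *Pla2g4a*, *Tbxas1* and *Lta4h* overlapped with each other, as neighbours in the order. *Alox5* went from the fourth place in the untreated order to below these 3 in the LPS order. Because the deposited values are averages over transcripts, a gene with many annotated transcripts is listed lower. Multiplied by the number of GENCODE M39 transcripts, which may not be the release used by the authors, the untreated means became 1190 for *Alox5ap*, 55.0 for *Ptges*, 46.6 for *Alox5* and 24.6 for *Ptgs2*, and the LPS means 2995, 216.3, 6.29 and 494.4.

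Set against each other within a sample, *Alox5* and *Ptgs2*, the enzymes at the head of the leukotriene and the inducible prostaglandin branch, had log2 ratios of -2.91, -1.16 and 1.93 in untreated and -7.23, -5.65 and -6.63 in LPS samples. The ratio was lower in every LPS sample than in every untreated sample, with a difference of -5.79 between the means (exact permutation p = 0.1, the smallest possible, adjusted p = 0.2). *Ptgs2* alone differed by 4.33 on this scale and *Alox5* by -1.46.

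**Figure D3:**
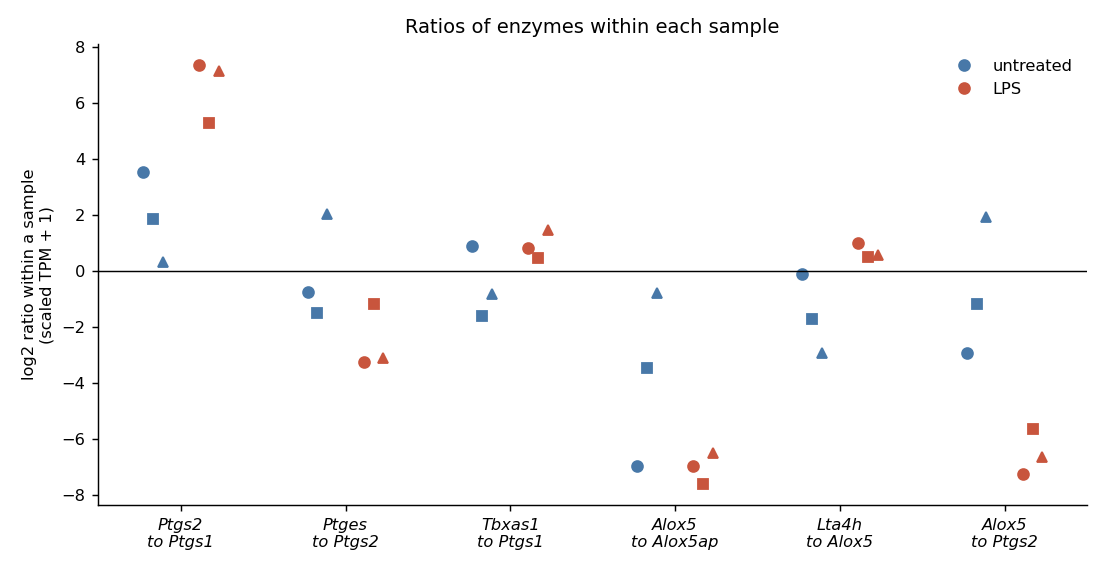
Log2 ratio of a pair of enzymes within a sample (y axis, each scaled TPM plus 1) for the 6 pairs, with 1 point per sample, untreated in blue and LPS in red, and circle, square and triangle for samples 1, 2 and 3. The groups are apart for *Ptgs2* to *Ptgs1*, *Lta4h* to *Alox5* and *Alox5* to *Ptgs2*, and overlap for the other 3 pairs.

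In the wider pathway, a list of 69 genes of eicosanoid synthesis, breakdown and sensing, 52 were in the table and 47 were tested. LPS raised 3 of them, *Ptgs2*, *Ptgir* and *Pla2g15*, and lowered 0, against 1.69% and 1.31% of all genes tested. Without the members, 2 of 37 tested genes were called higher, against the same 1.69%. The median of their fold changes was 0.01 on the log2 scale, as over all genes tested, and 9 had all LPS samples above the untreated samples, against 13.1% of all genes, and 1 below, against 9.75%. The 17 genes of the list outside the table, among them *Ltb4r1*, *Ltb4r2*, *Cysltr1*, *Cysltr2*, *Ptger2* and *Ptger4*, receptors of leukotrienes and of prostaglandin E2, are not analysed here.

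*Ptgir* (chromosome 7, 16640415 to 16644848, plus strand), the receptor of prostacyclin, was at 0.553, 0.842 and 1.05 in the untreated and 13.9, 16.8 and 10.5 in the LPS samples. All LPS samples were above all untreated samples by a wide margin. The means were 0.815 ± 0.249 and 13.7 ± 3.15 (SD, n = 3 each), a ratio of 16.8, and the log2 fold change was 3.01 (SE 0.32, 95% interval 2.24 to 3.78; limma, adjusted p = 0.0187) and under the limit, at 1.67, with a pseudocount of 5. The other 4 prostanoid receptors tested were not called.

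*Pla2g15* (chromosome 8, 106876653 to 106891733, plus strand), a lysosomal phospholipase, was at 1.85, 0.192 and 0.441 in the untreated and 9.73, 4.11 and 7.08 in the LPS samples. The LPS samples were all higher. The log2 fold change was 2.17 (SE 0.48, 95% interval 0.99 to 3.34; limma, adjusted p = 0.0858), and the call was lost in 8 of 20 alternatives, 4 of them the fits without untreated sample 2 or 3 or LPS sample 1 or 3 (1.91, 2.05, 1.92 and 2.12). Of the other genes of arachidonic acid release, *Plaa*, an activator of phospholipase A2, had the highest mean, with 2.84, 5.38 and 2.18 against 9.05, 7.49 and 7.58 (log2 fold change 1.08, limma, adjusted p = 0.203).

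Among the 8 terminal prostanoid synthases tested, 6 had all LPS samples above all untreated samples, against 13.1% of all genes, and 0 were called, against 1.69% higher and 1.31% lower. The most abundant was *Ptges3*, a cochaperone with prostaglandin E synthase activity, at 28.6, 33.0 and 42.3 against 102.0, 86.6 and 86.7 (log2 fold change 1.39, SE 0.28; limma, adjusted p = 0.0713). Its processed copies *Ptges3-ps* (484 bases at 99.174% identity) and *Gm11893* (203 bases at 98.522%) could share reads with it. *Akr1b3*, an aldo-keto reductase that can make prostaglandin F2 alpha and was chosen here after its values were seen, was at 0.797, 0.141 and 0.294 against 5.56, 2.13 and 4.39 (log2 fold change 1.79; limma, adjusted p = 0.0901).

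Of 8 lipoxygenases and partners, 0 were called (1.69% of all genes higher and 1.31% lower), 0 had all LPS samples above the untreated samples (13.1% of all genes) and 1 had all below (9.75%). This was *Alox12*, the platelet lipoxygenase, named after its values were seen, at 0.682, 1.15 and 1.14 against 0.372, 0.229 and 0.440 (log2 fold change -0.56; limma, adjusted p = 0.339). The leukotriene synthases and processing enzymes had 3 of 8 genes with all LPS samples above, against 13.1% of all genes, and 0 were called. Their most abundant gene, *Ggt5*, which converts leukotriene C4 into D4, had overlapping groups (log2 fold change 0.29; limma, adjusted p = 0.694), and its value was 0.51 without LPS sample 1 and -0.0069 without LPS sample 2. *Mgst2*, a microsomal glutathione transferase that can also make leukotriene C4, chosen after its values were seen, was at 1.13, 1.21 and 1.32 against 4.14, 6.87 and 3.95 (log2 fold change 1.40; limma, adjusted p = 0.092). *Gm37261*, an unclassified gene on the same strand within its bounds, was at 0.281, 0 and 0 against 5.86, 7.37 and 6.27, and its part in the value of *Mgst2* was not tested. *Ptgr1*, which inactivates leukotriene B4 and was the most abundant gene of breakdown and transport, was at 285.3, 52.7 and 21.0 against 162.9, 254.0 and 91.8, with overlapping groups (log2 fold change 1.17; limma, adjusted p = 0.551). As for *Alox5ap*, untreated sample 1 of *Ptgr1* was high and untreated sample 3 low, and the log2 fold change of *Ptgr1* was 2.19 without the first (limma, adjusted p = 0.163) and 0.34 without the second.

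**Figure D4:**
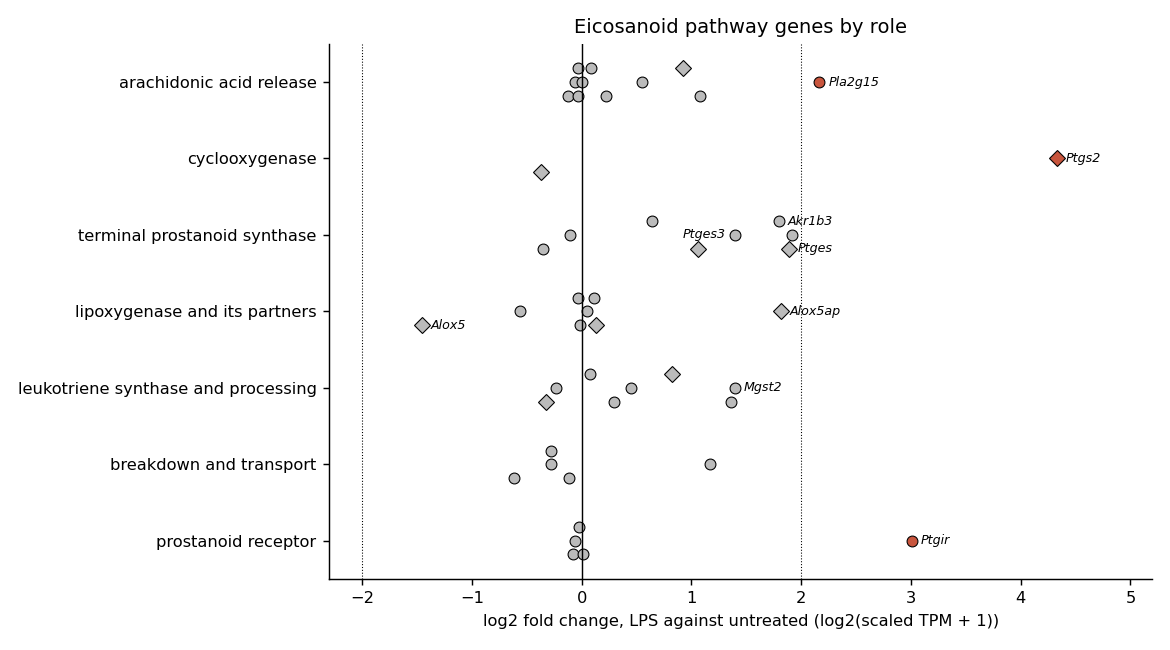
Log2 fold change (x axis, LPS against untreated on log2(scaled TPM + 1)) of the 47 tested genes of the wider pathway list by role (rows), with diamonds for the 10 enzymes, circles for other genes, red for genes past both limits and dotted lines at the fold limit. *Ptgs2* (4.33), *Ptgir* (3.01) and *Pla2g15* (2.17) lie beyond the limit of 2, and names are given to genes with p under 0.01 and to *Alox5* and *Alox5ap*.

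Over the 6 samples, the genes most like *Ptgs2* on the log2 scale, among 2794 protein-coding genes with a mean of at least 5, were *Rel* (Pearson r = 0.991), *Ppp1r15a* (0.990) and *Sap18b* (0.987). The 6 samples share the difference between the groups, so these values describe the pattern only. *Rel*, a subunit of NF-kB, was at 21.3, 30.7 and 10.65 in untreated and 97.0, 69.9 and 107.6 in LPS samples. As with *Ptgs2*, untreated sample 3 was the lowest of its group and LPS sample 2 the lowest of the LPS group.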

How the data were processed

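Strand-specific mRNA libraries of 3 untreated and 3 LPS samples of cGAS-/- peritoneal neutrophils were grouped as their titles and treatments say. Reads were aligned by the authors with STAR to GRCm39 and quantified transcripts with Kallisto, per their methods and processing notes, which also name mm10 and fastp. The deposited table holds TPM averaged over the transcripts of each gene and divided by 1 factor per sample. This was read from its digits, as 37 to 39 of 40 values of genes with 1 transcript came within 0.05 of a 6-digit number at the factor. Of 1355 values of 1 sample with 14 or 15 digits, 88.6% became shorter after multiplication by a whole number from 2 to 100. These digits were read in the first 16999 rows, and the other 21740 rows were taken to hold the same unit. Reads per sample are unknown, so precision rests on the spread between samples. Whether strand was used and the annotation release are not given in the sources used here.

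Genes above 0 in any sample were compared on log2(value + 1) in R 4.3.3 with limma 3.58.1 (two-sided, lmFit and eBayes with trend), LPS against untreated, without covariates. The pseudocount understates the change of low genes. Voom, an alternative made for counts, was run on scaled TPM. With it the median log2 fold change over all genes tested was 0.67. It gave 0.65 to *Pla2g4c*, listed above 0 in LPS sample 3 alone. Genes were called where the log2 fold change was over 2 in either direction and p, before adjustment, under 0.01, and p values were adjusted by Benjamini-Hochberg over all genes tested. Ratios within a sample were compared with exact two-sided permutation tests. Positions and transcript numbers are from GENCODE M39 (36572 genes matched). Near-identical stretches were those of at least 150 bases at 95% identity or more (blastn 2.17.0). The fit was tested on simulated data. The labels name no batch.

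The members, the pathway and marker lists and the limits were chosen with earlier results of these data known. Genes named are the members, the pathway genes that were called, had an adjusted p under 0.05 or had the highest mean of their role, the 3 genes most like each called member and the top gene of each marker list. Other genes are named for an overlap with a member or as said beside them. There were 20 alternatives of the fit, 2 of them (the factor per sample removed, protein-coding genes alone) added after seeing the data.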

Additional observations from a re-analysis of the deposited data

How the results depend on the processing

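Of 197 log2 fold changes of the 10 members under alternatives, 182 kept their direction and their side of the limits, 9 passed the limits anew and 6 turned. Some alternatives left the estimates as they were, so their direction could not change. These were the changes of limit, of genes tested and of trend, and the replicate block. *Ptgs2* stayed called in all 20. The number of members called higher, 1 in the report, was 2 with a pseudocount of 0.1, with the same sum over all genes, with a fold limit of 1 and with the factor per sample removed (added after seeing the data), 4 with voom, and 1 to 2 with 1 sample left out, *Ptges* being the second except with voom, where *Ptges*, *Tbxas1* and *Alox5ap* joined *Ptgs2*. Members called lower, and pathway genes called lower, were 0 to 1 with 1 sample left out, *Alox5* without untreated sample 1. Pathway genes called higher, 3 in the report, were 6 with a pseudocount of 0.1 and with the sum over all genes, 1 with a pseudocount of 5, 10 with voom, 7 with a fold limit of 1 and 2 to 4 with 1 sample left out. Over all genes, 856 were higher and 493 lower with a pseudocount of 0.1, 129 and 168 with a pseudocount of 5, 216 and 519 with the sum over protein-coding genes, 789 and 144 with the sum over all genes, 1552 and 177 with voom, 206 and 218 at an adjusted p under 0.05, and 834 and 673 with a fold limit of 1. Protein-coding genes alone (added after seeing the data, with fewer genes tested) gave 44 lower. With 1 sample left out, 238 to 434 were higher, 238 without LPS sample 3, and 241 to 375 lower. Beyond the changes of limit or of genes tested, the cause was not tested. Directions turned for *Alox15* (-0.0445 with the sum over protein-coding genes; -0.17 to 0.45 with 1 sample left out), *Ptgs1* (0.15 with voom; -0.885 to 0.0428) and *Ltc4s* (0.20 with voom). The 6 ratios kept their direction in 9 of 9 alternatives, of which the replicate block could not change it. Their sizes moved, with 1 sample left out, between -3.16 and -1.39 for *Ptges* to *Ptgs2*, 0.88 and 2.14 for *Tbxas1* to *Ptgs1* and -4.89 and -1.79 for *Alox5* to *Alox5ap*. Low members rest on values near or under 1, where the pseudocount limits the fold change.

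A fit with the replicate block called 387 genes higher and 303 lower, 1 member and 3 pathway genes higher, and the adjusted p was 0.121 for *Ptgs2* and 0.0925 for *Ptgir*. Samples with the same number deviated together only weakly (r = 0.0935, 0.199 and 0.083 over genes for numbers 1, 2 and 3), although each correlated best with its own number. Some marker sums also went by number. Red cell markers were highest in sample 3 of each group (2696 and 3074). In sample 2 of each group, B cell markers were lowest (281.3 and 262.8) and neutrophil markers highest (28460 and 54970). Mast cell markers were lowest in untreated sample 1 and LPS sample 2. The labels give no shared mouse or day, so the numbers were not taken as pairs, and whether they are pairs was not settled. Paired ratios gave an exact sign-flip p of 0.25 or 0.5, where 0.25 is the smallest that 3 pairs allow.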
